A study of Mus musculus with 2 samples.

Results

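Intergenic contigs are stretches of the genome covered by RNA reads where the gene annotation of the time held no gene. In the deposited mm9 contig table of the mouse embryonic central nervous system, 1700 of 858138 contigs were of this kind. They were chosen by a level of 1 or more, an irreproducibility score of 0.1 or less, no overlap with an Ensembl release 65 gene on either strand, and no start within 10 kb past the 3' end of a same-strand gene. The level and the score are readouts of these same libraries, so levels are given here as a description and were not tested. The table also holds a whole number for each contig that was read here as summed aligned bases, a meaning inferred from its values and not stated in the sources used here. Divided by contig length it was 62.7 to 63.3 times the level in contigs at a level of 1 or more, so a level of 1 would be a mean depth of about 63 reads. Of all contigs, 38829 passed the level and score limits. Of those, 35876 overlapped a same-strand gene, 956 overlapped a gene on the other strand only, and 297 started within 10 kb past a same-strand gene end.

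The RNA came from whole central nervous system of C57BL/6J embryos at day 18, taken from littermates of pooled sex. Both libraries belong to 1 untreated group and are numbered as biological replicates 1 and 2, and the number of embryos in each is not given in the labels, so an SD over them may be technical in part. Libraries were made from poly-A RNA longer than 200 nt, freed of ribosomal RNA beforehand, and read in pairs with the strand kept. The mm9 tables cover the whole series, and nothing links their replicate numbers to a given library; they are called table replicates 1 and 2 below.

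Much of a mammalian genome outside protein-coding genes is transcribed at some level. Known products include long intergenic non-coding RNAs, which are spliced and polyadenylated like messenger RNAs, processed copies of other genes, precursors of small RNAs, and unannotated first or last exons of neighbouring genes. In the developing brain, long non-coding RNAs often lie beside genes for neural transcription factors, as Pantr1 and Pantr2 do beside Pou3f3.

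The mature sequence and the spliced sequences that follow belong to annotated RNAs. The spliced ones were tied to contigs by neighbouring genes and intron length. The mature one only lies in the same gene gap as a contig, and whether that contig covers it was not determined. The contigs themselves lie on mm9, and their own sequence was not read here. The first lies in the gene gap of the contig with the third highest level, between Cspg5 and Elp6, where Mir6236 is the only same-strand gene annotated later (RefSeq, GRCm38.p6, chr9:110281353-110281371, + strand). Capitals mark the seed, bases 2 to 8.
mmu-miR-6236: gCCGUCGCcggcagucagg

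The next 6 sequences are non-coding transcripts of GENCODE M21 on GRCm38, read across an intron whose length equals that of a junction ending in an intergenic contig. Each shows 30 bases before and 30 bases after the splice, and the capitals mark the 4 bases around it.
Gm17750, intron chr13:84025704-84064650, - strand: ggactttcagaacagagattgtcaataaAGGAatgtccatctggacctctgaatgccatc
1110015O18Rik, intron chr3:4812713-4813707, + strand: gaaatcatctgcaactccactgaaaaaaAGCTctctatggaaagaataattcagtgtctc
Pantr2, intron chr1:42708419-42712202, - strand: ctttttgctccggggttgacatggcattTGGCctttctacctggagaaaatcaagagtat
Gm28175, intron chr1:42301953-42303850, + strand: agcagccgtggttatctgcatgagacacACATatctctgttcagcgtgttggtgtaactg
Pantr1, intron chr1:42667004-42694746, - strand: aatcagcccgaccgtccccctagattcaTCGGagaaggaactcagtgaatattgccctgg
C130071C03Rik, intron chr13:83872762-83883555, + strand: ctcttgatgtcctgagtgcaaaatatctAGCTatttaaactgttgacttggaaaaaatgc

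The tissue label was checked on marker genes, and all 13 nervous system markers reached a TPM (transcript abundance scaled by length and depth) of 1 in both libraries. The neuronal tubulin Tubb3 reached 2731 and 2430 TPM, replicate 1 first, and the radial glia gene Fabp7 at 1433 and 1603. However, 6 of 11 markers of other tissue also reached a TPM of 1 in both libraries, so that limit does not set the tissues apart. Among them the red cell gene Hbb-bs stood at 991 and 891 TPM and the choroid plexus gene Ttr at 427 and 1389. Of the 11, 6 were at least 2-fold higher in replicate 2, with the skeletal muscle actin Acta1 at 10.2 and 167 TPM and the bone gene Ibsp at 0.47 and 27.9. The other direction held for 2, with the keratin Krt6a at 32.9 and 0.03. The part of this in the contigs was not tested. The gene tables assign 93979800 and 137013000 expected counts to genes, and the mm9 junction table holds 48204482 and 69266527 reads of its replicates.

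Most intergenic contigs were very short. The median length was 58 nt, from 10 to 54437 nt, and 1052 contigs (61.9%) had at most 100 nt, less than a single sequencing read. Over all contigs past the level and score limits that share was 7.34%. A further 446 contigs were longer than that but under 1000 nt, and 202 reached 1000 nt. The long ones held 81.3% of the 1181641 covered bases and the short ones 3.74%. These classes are called short, middle and long below, and their limits were set after the lengths were seen.

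The short contigs fell into more than 1 size range. Of them, 334 were at most 25 nt long, 387 were 26 to 50 nt and 331 were 51 to 100 nt. The nearest contig of any level on the same strand was a median of 7751 nt away from a short contig, against 939 nt from a middle one and 62 nt from a long one. Short contigs were thus mostly isolated, while 61.9% of long contigs had a neighbour within 1 read length.

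**Figure D1:**
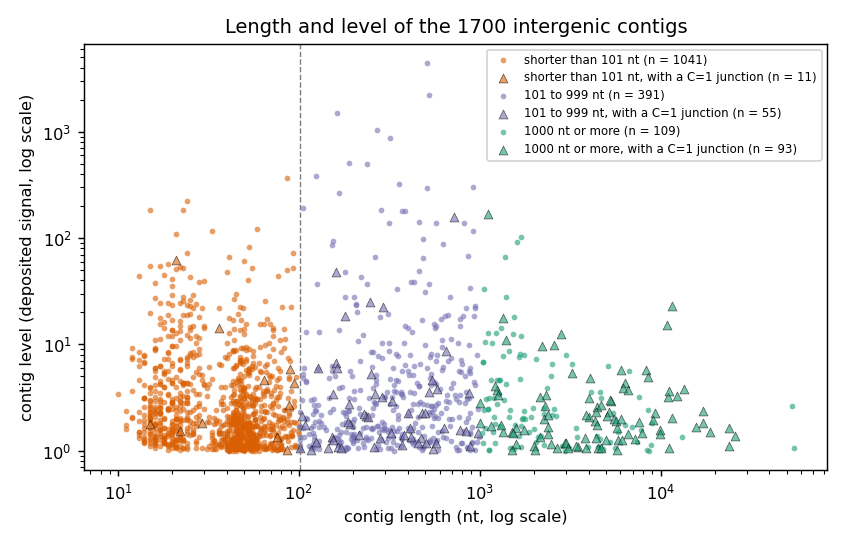
Contig length (x, nt, log scale) against the deposited level (y, log scale) for the 1700 intergenic contigs. Points are single contigs, colours the 3 length classes, and triangles contigs with a C=1 splice junction of 10 reads in each table replicate. The dashed line is 1 read length. Triangles make up 93 of 202 long contigs and 11 of 1052 short ones.

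The highest levels belonged to contigs of middle length. The median level was 2.04, and 211 contigs reached a level of 10, 31 a level of 100 and 4 a level of 1000. All 4 of the last were of middle length, while 2 long contigs reached 100. The 10 contigs of highest level measured 86 to 521 nt, and 8 of them had no junction of 10 reads in each table replicate.

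The top contig stood at a level of 4390 on the + strand of chromosome 3 (5860318 to 5860829), 284078 nt from Pex2, a peroxisome assembly gene. The best de novo gene model over it had an RPKM (the name the deposited table gives its reads scaled by length and depth) of 0.0669 in table replicate 1 and 0.0142 in table replicate 2. Level and RPKM thus stood far apart at this contig.

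The second, on the - strand of chromosome 11 (108872952 to 108873472), had a level of 2220 beside an RPKM of 1.44 and 0.709. The third, of 162 nt on the + strand of chromosome 9 (110183728 to 110183889), had a level of 1510 beside 1.70 and 0.811. It lay 18648 nt past Cspg5, a neural proteoglycan gene, on mm9, and Mir6236 lies 18710 nt past Cspg5 on GRCm38, in gaps of 42616 and 42596 nt. Whether they are the same bases was not determined, because no coordinates were moved between builds.

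The fourth differed from those. It lay on the + strand of chromosome 18 (68851703 to 68851974) at a level of 1040, and its model stood at 251 and 233 RPKM. The remaining 6 ran from a level of 870 on chromosome 14 through 508, 500, 386 and 364 on chromosomes 9, 1, 17 and X to 320 on chromosome 8. The chromosome 8 contig had a model at 43.3 and 30.3 RPKM, while models over the others were at or below 0.282 RPKM in table replicate 1.

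Level and model RPKM were compared over all 949 contigs under a model. In 614 of them (64.7%) the level was at least 10-fold the highest mean RPKM of any same-strand model over the contig, against 19.8% of all passing contigs with a model. The share was 83.6% of short, 59.7% of middle and 34.0% of long contigs. Of these contigs, 220 had a model at an RPKM of 0, 179 of them short, and pass any ratio. Without RPKM values of 0 the count was 394 of 729 (54.0%), against 18.8% of all passing contigs. The rule sets a level of 1 or more, so each contig whose model has an RPKM of 0.1 or less also passes. The median RPKM was 0.104 for the intergenic contigs and 0.626 for all passing contigs with a model. These shares thus depend in part on the rule and are no test. Among the 121 contigs with a C=1 junction (defined with the junctions below) and a model, 17 were past that ratio. RPKM is a value of a whole model and level a value of a contig, and how reads that align to several places were treated in each table is not given in the sources used here.

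**Figure D2:**
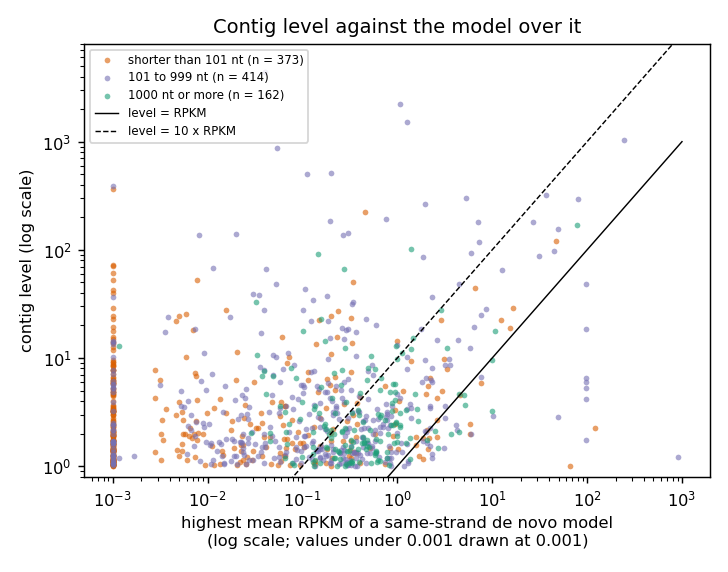
Contig level (y, log scale) against the highest mean RPKM of a same-strand de novo model over the contig (x, log scale) for 949 intergenic contigs, coloured by length class. Lines mark equality and a 10-fold ratio, and 614 points lie on or above the 10-fold line, 220 of them with an RPKM of 0. Values under 0.001 are drawn at 0.001.

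At the level limit, the 3 members just inside stood at 1.00 and measured 41 to 55 nt. The 3 contigs just outside stood at 0.999, 0.999 and 0.998 and measured 35, 58 and 1128 nt. At the score limit, 3 members stood at 0.09 with lengths of 13 or 14 nt, and 3 contigs just outside stood at 0.12 with the same lengths. The score of 1454 members was 0, and 15 intergenic contigs at the level of 1 failed the score limit.

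The members were not all far from genes. The median distance to the nearest gene on either strand was 27122 nt, and 341 contigs lay over 100 kb from any gene. However, 435 lay within 10 kb of a gene, and 35 long, 26 middle and 40 short contigs within 1 kb, because the rule sets a distance only past same-strand 3' ends. The nearest protein-coding gene lay so that the contig was upstream of it on the same strand in 512 cases, upstream on the other strand in 470, downstream on the other strand in 420 and downstream on the same strand in 298. Within 5 kb upstream and on the other strand, a divergent position, there were 72 contigs, 26 of them long. The share of bases between genes in each of these positions is not given here, so no excess can be read from the counts.

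Splice junctions of 10 reads were most frequent at long contigs. A junction is a gap in read alignments, and it was counted for a contig when an end fell in it or within 10 bases on the same strand with at least 10 reads in each table replicate. Such a junction was found for 248 of 1700 contigs (14.6%), against 88.6% of all passing contigs. By class these were 94 of 202 long, 72 of 446 middle and 82 of 1052 short contigs.

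The junction table carries 2 flags, A and C, that the sources used here do not define. None of the 443 junctions of the intergenic contigs had A=1, against 142133 of all 160001 junctions of 10 reads. Among the 191148 junctions with A=1 at any read number, 99.7% also had C=1, and C=1 was carried by 97.6% of all junctions of 10 reads. Most of the latter had A=1, so 97.6% is not a like baseline for the intergenic contigs. C=1 held for 209 of 225 junctions at long contigs (92.9%), 93 of 156 at middle (59.6%) and 18 of 85 at short ones (21.2%). A single group of 13 neighbouring middle and short contigs on chromosome 11, described below, had 47 of these junctions, 13 with C=1. The shares of middle and short contigs thus rest in part on 1 locus. Among long contigs, 1 contig near the start of chromosome 4, also described below, had 27 of the 225 junctions. Together with its neighbour it had 28, of which 18 had C=1, so the share of long contigs rests in part on that locus. The median junction spanned 1946 nt at long contigs and 114367 nt at short ones. Counting only C=1 junctions left 159 contigs (9.35%), against 87.9% of all passing contigs. They were 93 long, 55 middle and 11 short contigs.

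**Figure D3:**
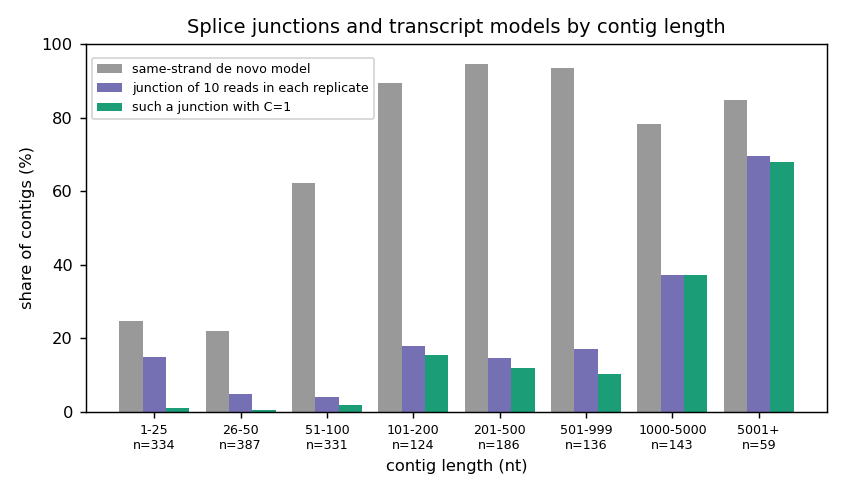
Share of intergenic contigs (y, %) under a same-strand de novo gene model, with a junction of 10 reads in each table replicate, and with such a junction carrying C=1, by contig length (x, nt; n under each bin). In the longest bin 67.8% had a C=1 junction, and in those of at most 25 nt 0.898% did.

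The most read junction of the whole set joined 2 very short contigs on the - strand of chromosome 12. Contigs of 15 nt (34504996 to 34505010) and 23 nt (34647729 to 34647751) stood at levels of 182 and 183. The junction between them spanned 142718 nt with 5340 and 8048 reads, carried C=0, and reached across Ferd3l and Twist1, both genes of basic helix-loop-helix factors. A 40 nt contig between Axl and Cyp2s1 on chromosome 7 (26583056 to 26583095) ended a C=0 junction of 377015 nt with 3245 and 3237 reads.

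One junction of short contigs was read almost only in table replicate 1. It joined contigs of 16 and 45 nt on the + strand of chromosome 10 (17044015 to 17044030 and 17213653 to 17213697), in the gap before Cited2, a gene of a transcriptional coregulator. It had 4360 reads in table replicate 1 and 88 in table replicate 2, over a span of 169623 nt with C=0.

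Replicate differences in junction reads were described relative to the totals of the table. At 2-fold or more, in either direction, there were 59 of 443 junctions of intergenic contigs (13.3%), against 3.03% of all junctions of 10 reads. The share was 27 of 85 at short contigs, 22 of 156 at middle ones and 15 of 225 at long ones. The group of 13 contigs on chromosome 11 and a pair near the start of chromosome 4, described below, had 47 and 28 of the 443 junctions. The shares of middle and long contigs thus rest in part on these loci. A junction that ends in contigs of 2 classes is counted in both. With 1 library on each side no difference was tested.

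**Figure D4:**
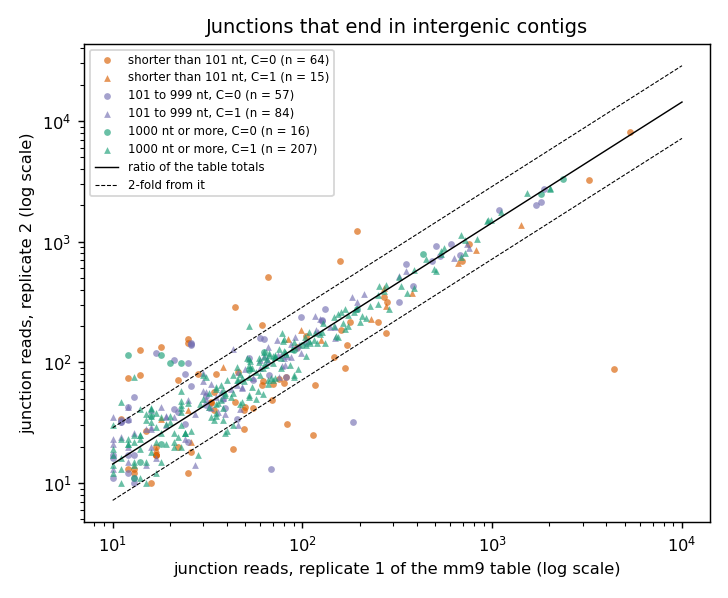
Reads of table replicate 1 (x, log scale) and table replicate 2 (y, log scale) for 443 junctions that end in intergenic contigs. Colour gives the length class (each junction drawn once, in the class of its first contig), circles C=0 and triangles C=1, and lines the ratio of the table totals and 2-fold from it. The single point far below the lines has 4360 and 88 reads.

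Junction lengths were compared with those of annotated introns without moving coordinates. For each contig the gap between the nearest genes that kept their order on GRCm38 was found, and junction lengths were compared with intron lengths of GENCODE M21 genes in or beside that gap. A gap was found for 1618 contigs, while 29 lay at a chromosome end and 53 in gaps whose gene order or strand had changed. Of the 248 contigs with a junction, 62 had an exact match, 42 long, 20 middle and 0 short, to 53 genes. A further 156 had a gap but no match (45 long, 33 middle, 78 short), and 30 had no gap. C=1 was carried by 43 of 43 matching junctions at genes that the mm9 table lacked and by 51 of 52 at flanking genes. Junctions with a gap but no match carried it in 155 of 243 cases, and those with no gap in 57 of 105. Over all junctions of 10 reads the share was 97.6%, but most of those had A=1 and none of these did, so it is not a like baseline. Every match lay at a long or middle contig, so these counts are no test of the matches. The comparison of junction and intron lengths was added after the data had been seen.

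Of these genes, 24 were absent by identifier from the mm9 gene table and are called later annotated here. A new identifier does not show that the gene had no earlier model under another one. Gm17750, a long intergenic RNA gene on the - strand, had the most junction reads. Contigs at chromosome 13, 84164560 to 84166773 and 84202718 to 84204861, had levels of 9.65 and 3.21, and a 38947 nt junction with 2028 and 2728 reads joined them. Its length equals that of an intron of Gm17750, whose spliced ends are shown above. The de novo model over both contigs stood at 10.3 and 9.62 RPKM, and Gm17750 itself at 137 ± 11.1 TPM (SD, n = 2).

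D430019H16Rik, annotated as protein-coding, followed. Contigs of 3239 and 11630 nt on the + strand of chromosome 12 (106691800 to 106695038 and 106721739 to 106733368) had levels of 5.41 and 23.1. The 33454 nt junction between them had 833 and 1061 reads, and D430019H16Rik stood at 99.7 ± 13.1 TPM (SD, n = 2). The de novo model over these contigs stood at only 0.171 and 0.143 RPKM, far below their levels. The same gap holds Tunar, known from neural differentiation and annotated as protein-coding in M21, at 12.2 ± 0.962 TPM (SD, n = 2), with no matching junction length.

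By junction reads the next were Gm19196, annotated as a transcribed unprocessed pseudogene, with 581 and 1026 over 4 introns, and CT486005.1, a long intergenic RNA gene, with 544 and 796 over 6. CT030661.1, annotated as protein-coding, followed with 3 introns. These are among 13 matched later genes that the TPM tables do not list. Among listed ones, 1110015O18Rik, a long intergenic RNA at 16.4 and 16.5 TPM, matched a 995 nt junction with 72 and 110 reads at a contig of 4040 nt on chromosome 3. Mfsd4b4, Fam181a, Tmem200c and Zfp994 are annotated as protein-coding and matched junctions at single long contigs. Mfsd4b4 stood at 7.97 and 8.61 TPM and Zfp994 at 2.13 and 2.38.

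The other 29 genes were flanking genes of the mm9 table whose later model is longer. In all 33 of their contigs the gene gap had narrowed on GRCm38 by at least the distance between contig and gene. This held for 111 of all 1618 contigs with a gap. By class these were 46 of 191 long, 34 of 409 middle and 31 of 1018 short contigs, while the 33 were all long or middle. The contig lay upstream of 22 such genes, at a median of 14935 nt from the old gene start, and downstream of 8, at 35711 nt; Gm9801 is in both counts. Smarcd3, a subunit gene of neural chromatin remodelling complexes, had the most reads. A contig of 7922 nt on chromosome 5 (24122573 to 24130494) lay 14742 nt upstream of it, with 2 matching introns, 1925 and 2983 reads and a level of 1.48. Upstream contigs also matched Lingo1, a neuronal membrane receptor gene, at 106926 nt, Kcnma1, a potassium channel gene, at 198416 nt, and Grm5, a glutamate receptor gene, at 17649 nt. The farthest was a contig of 2801 nt at a level of 12.4, 1197804 nt downstream of Nkain2, with 249 and 302 reads over a 2644 nt junction.

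Pou3f3, a POU factor of cortical neurons, was the only listed neural transcription factor with 5 or more contigs beside it. Of its 5 contigs on chromosome 1 (levels 1.19 to 1.92), 4 were long and all 5 had a C=1 junction. The - strand contig at 42750144 to 42752288 lay 1702 nt upstream of Pou3f3 and matched the 27743 nt intron of Pantr1 with 286 and 278 reads. The + strand contig at 42751730 to 42752365 overlapped that contig on the other strand and had no match. On the other side, the - strand contig at 42763887 to 42768210 matched the 3784 nt intron of Pantr2 with 57 and 50 reads, and Pantr2 stood at 10.7 and 9.36 TPM.

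Farther out, a contig of 25791 nt (42346526 to 42372316) matched Gm28175 and a contig of 2979 nt (41993845 to 41996823) matched Gm29260, at 757167 nt from Pou3f3. Gm28175 stood at 1.44 and 1.10 TPM and Gm29260 at 3.35 and 2.81. Pou3f3 itself stood at 42.0 and 29.0 TPM.

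Beside Mef2c, a factor of neuronal differentiation, there were 3 contigs, all on its strand and downstream. The contig at chromosome 13, 84021448 to 84024134, matched a 10794 nt intron of C130071C03Rik with 48 and 74 reads. Satb1, a chromatin-organising factor, also had 3 contigs, of which 2 were short and none had a junction of 10 reads. Of all members, 41 (2.41%) had a gene of the list of 155 neural transcription factors as nearest protein-coding gene. Such genes are 0.753% of protein-coding genes, but 2.72% of the bases between protein-coding genes lie nearest to them, so the count was near that share of bases. By class they were 10 of 202 long (4.95%, 4 of them beside Pou3f3), 8 of 446 middle (1.79%) and 23 of 1052 short contigs (2.19%).

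The 2 longest contigs had no splice junction of 10 reads, and the 5 longest stood at levels of 1.07 to 2.61. A contig of 54437 nt (chromosome 16, 6512379 to 6566815, + strand) lay 242499 nt before Rbfox1, a neuronal splicing factor gene on the same strand, at a level of 1.07. Its model stood at 0.456 and 0.591 RPKM. A contig of 53525 nt (chromosome 3, 118201117 to 118254641, + strand) ended 10405 nt before Dpyd, a pyrimidine catabolism gene, at a level of 2.61, with a model at 1.63 and 1.66 RPKM.

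The latter gap holds 3 later annotated genes of the type TEC, loci that await experimental tests. Gm37773 stood at 14.1 ± 0.834 TPM and Gm37928 at 11.8 ± 0.552 TPM (SD, n = 2), and Gm32444 at 9.27 and 7.58 TPM. The other 3 of the 5 longest contigs were spliced. They measured 25791, 24045 and 24018 nt and had 3, 10 and 3 junctions of 10 reads.

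Contigs of the same strand within 10 kb and with no gene between them were joined into runs, which gave 1618 runs, 1562 of them a single contig. The largest held 13 contigs in 4408 nt at the start of chromosome 11 (3000358 to 3004765), 21141 nt before the pseudogene Pisd-ps1. It had 47 junctions, 13 with C=1, and 15233 and 21131 junction reads. A de novo model over 7 of its contigs reached 96.5 and 99.9 RPKM and overlapped an annotated same-strand gene. Reads here can be shared with near-identical copies, so the values are uncertain.

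A pair of contigs near the start of chromosome 4 (3016640 to 3018324) had the most junction reads, 14796 and 22131 over 28 junctions. A run of 6 contigs past Sod2, the mitochondrial superoxide dismutase gene, covered 4525 nt on chromosome 17 (13227707 to 13233895). Its 3 junctions had 257 and 308 reads, and 2 of its contigs matched introns of Sod2, 16721 and 18751 nt past the old gene end. Among the runs with most contigs, 6 contigs on chromosome 12 (8628297 to 8632000) between Slc7a15 and Pum2 and 3 on chromosome 6 (47718652 to 47720839) had no junction of 10 reads. A single contig of 64 nt on chromosome 17 (6624248 to 6624311) had 3 junctions, all C=1, with 2505 and 2651 reads. By covered bases, the runs that led were the single contigs before Rbfox1 and Dpyd, followed by the 25791 nt contig, a pair of 24449 nt on chromosome 13 and the 24045 nt contig.

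De novo gene models, built by the authors with Cufflinks per the file attributes, lay over 949 contigs (55.8%) on the same strand, against 85.4% of all passing contigs. The share was 92.8% of middle, 80.2% of long and 35.5% of short contigs. Neither a junction of 10 reads nor a model was found for 655 contigs (38.5%), of which 16 were long (7.92% of long contigs). The share of all passing contigs with neither is not given here, so 38.5% has no value to be set against. The models over members numbered 963, with a median RPKM of 0.0723 and 0.0775 in the table replicates, and 160 of them also overlapped a same-strand gene.

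The model of highest mean RPKM, CUFF.1304 on chromosome 1 at 885 and 918, was such a case, as its 117536 nt reached over annotated genes while the member contig stood at a level of 1.21. CUFF.1292, at 752 and 731, lay over the same contig. The highest model off such genes was that of the chromosome 18 contig above. Over long contigs and off genes the highest was CUFF.11215 on chromosome 2 (22600245 to 22600775) at 79.3 and 78.7, where a contig of 1113 nt stood at a level of 169.

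Of 115 models at a mean RPKM of 1 or more, 9 differed 2-fold or more between table replicates on the log2(RPKM + 1) scale (7.83%), against 1.43% of all models at that level. CUFF.103695, 116 nt near Btn1a1 on chromosome 13, stood at 10.4 and 1.33. CUFF.9820, with Plxna2 as a flanking gene, stood at 3.86 and 0.302. CUFF.25973 on chromosome 3 (20.7 and 3.85) and CUFF.85686 on chromosome 10 (0.0543 and 3.66) also overlapped same-strand genes. The contigs under these 4 were 62 to 90 nt long. CUFF.101526 beside Efcab11 on chromosome 12, over a contig of 629 nt, stood at 16.7 and 45.0.

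A later annotated same-strand gene lay in the gap of 864 of the 1618 contigs (53.4%), against 51.2% of all bases between genes, counted on each strand. The count was thus near that share of bases. It was 70.2% of long, 63.6% of middle and 46.2% of short contigs. Being in the same gap does not show that contig and gene overlap. Those gaps held 1753 such genes, of which 553 are listed in the deposited gene tables of annotation M4.

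Of the 553, 56 (10.1%) reached a TPM of 1 in both libraries, against 34.2% of all 43346 genes. They were 18 long intergenic RNA genes, 13 protein-coding genes, 9 TEC genes, 6 unprocessed pseudogenes and 10 of other types. For 10 of the 56 a junction length matched an intron. Processed pseudogenes were the largest type with 199 genes, of which 4 were detected. Of 37 miRNA genes, 0 were detected.

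**Figure D5:**
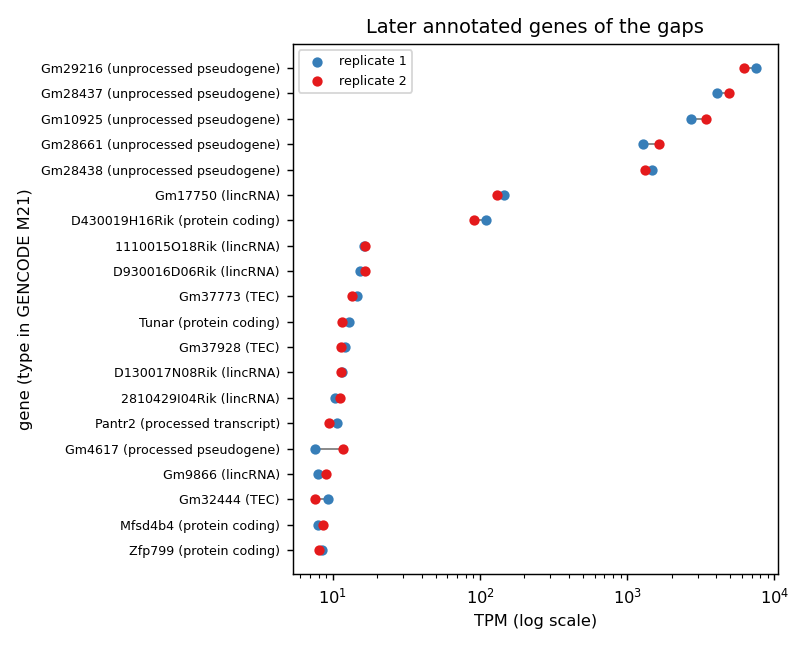
TPM (x, log scale) in replicate 1 (blue) and replicate 2 (red) of the 20 later annotated genes of the gaps with the highest mean TPM; grey lines join the libraries. The 5 unprocessed pseudogenes at the top lie in 1 gap whose contig has a level of 1.21, and Gm17750 follows at 145 and 129 TPM.

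The 5 highest of these genes were unprocessed pseudogenes of 1 gap on chromosome 1, from Gm29216 at 6848 ± 879 to Gm28438 at 1395 ± 99.8 TPM (SD, n = 2). Their values are uncertain, since reads of near-identical copies may be assigned to either. Below Gm17750 and D430019H16Rik, the other 13 genes lay between 8.21 and 16.4 TPM on average. Among them D930016D06Rik, a long intergenic RNA, stood at 15.8 ± 0.884 TPM (SD, n = 2), in the gap of a contig of 24018 nt on chromosome 5.

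Between the libraries, 1 of 57 later annotated genes at a mean TPM of 1 differed 2-fold or more on the log2(TPM + 1) scale, against 1.92% of all genes at that level. This was the processed pseudogene Gm9824, at 3.36 and 9.09 TPM with 72.8 and 301 expected counts, a value that is uncertain for a copy of another gene. Gm4617 followed at 7.51 and 11.8, and Gm10925 at 2690 and 3441. In the other direction Gm26779 stood at 2.01 and 1.13, 2900037B21Rik at 2.71 and 1.99, and D430019H16Rik at 109 and 90.5. In bulk tissue, fewer cells of a type and less RNA per cell cannot be told apart.

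Contigs of the other strand covered some of the same bases. For 467 intergenic contigs (27.5%) a contig of any level lay over it on the other strand, against 38.1% of all passing contigs, and in 68 of these it had the higher level. The share was 45.5% of long, 18.8% of middle and 27.7% of short contigs.

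The remaining contigs away from same-strand genes were mixed in length too. Of 956 contigs that overlapped a gene on the other strand only, 58.4% were short and 9.21% had a junction of 10 reads. Of 297 contigs just past a same-strand gene end, 33.7% were short and 18.5% had one. The median levels were 1.85 and 1.92, beside 2.04 for the intergenic contigs. None of these differences was tested.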

How the data were processed

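The authors deposited contigs on mm9 with a signal level, an irreproducibility score and summed bases, and junctions with read counts of table replicates 1 and 2 and a score. Gene tables on mm10, deposited for each library, give expected counts and TPM for annotation M4, per the deposited read-me texts. Ensembl gene and Cufflinks model tables on mm9, deposited for the series, give RPKM of both table replicates, per the file attributes. Neither the aligner nor the quantifier is named in the sources used here. Overlaps were computed with bedtools 2.31.1, and interval code was tested on simulated data. Each of 37310 Ensembl genes, listed on 2 lines, was used once, and 32620 had a symbol in GENCODE M21.

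The members and gene lists were chosen with earlier results of these data known. Named items were drawn from the 10 contigs of highest level, the 5 longest, the 5 runs with most contigs and with most bases, the 10 with most junction reads, the 5 models of highest RPKM and the 5 of largest ratio, the contigs at each limit, the 20 highest later annotated genes and the 3 at each end of their ratios, and each listed factor with 5 or more contigs. Genes with matched introns, Mef2c, long contigs' models, Satb1 and the comparison of level with RPKM were added after values were seen. With 1 group of 2 libraries no test was run. Alternatives were other limits, distances, pseudocounts, filters, leaving out each replicate, and CPM with TMM factors (edgeR 4.0.16, counts rounded). A run of contigs is not reported here.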

Additional observations from a re-analysis of the deposited data

How the results depend on the processing

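The number of intergenic contigs moved most with the level limit, to 3573 at 0.5 and 865 at 2. Long contigs became 609 and 104, and 321 with same-strand overlap only, and short ones 2064 and 502. Other score limits, distances and overlap rules gave 1538 to 2548. With the junctions, reads in 1 table replicate alone gave 287 without replicate 1 and 273 without replicate 2. Counting C=1 junctions only gave 159, an alternative added after seeing the data, as was leaving out contigs shorter than 1 read. The latter left 576 under a model, 583 runs, 394 in gaps with a later annotated gene and 18 beside a neural transcription factor. Gaps of at most 500 kb left 573 contigs with a later gene. A TPM of 5 left 23 later genes, while the count was 59 without replicate 1 and 56 without replicate 2. With no level filter 3 later genes were past 2-fold. Counting both flanking genes gave 94 contigs beside a listed factor, and a limit of 100 kb gave 22. Over 2-fold between table replicates, 9 models became 13 with a pseudocount of 0.1 and, in another added alternative, 6 off same-strand genes. No paired analysis was possible because the series holds 1 group. Depth limits are those of a level of 1 and 10 junction reads in each replicate.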
